A study of Homo sapiens with 6 samples.

Results

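FGF9, the 4 fibroblast growth factor (FGF) receptors FGFR1 to FGFR4, the receptor-like gene FGFRL1, the FGF-binding protein FGFBP1 and the receptor adaptor FRS2 were followed in HCT116, a long-established line of human colorectal carcinoma cells. These 8 genes were taken by symbol from the deposited table, which holds 17269 genes, and all 8 passed the filter on low counts that left 13104 genes. The groups were 3 libraries of cells with a short hairpin RNA against PRSS22, a secreted serine protease (shPRSS22), and 3 control libraries (shCtrl), whose genotype is labelled WT. The labels give 1 cell line, no hairpin sequence, no time after its introduction and no statement that replicates were separate cultures, so each p-value covers no more than the variation among these libraries, part or all of which may be technical. The genes were chosen by their read counts in shPRSS22 compared with shCtrl, so those differences are a description. Where the fit over all genes placed one of them on either side of its threshold, that is part of the description and no support for the difference.

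Most FGFs are secreted ligands that bind receptor tyrosine kinases together with heparan sulfate chains on the cell surface. FGF11 to FGF14 act inside the cell and are counted below in the ligand list by family name only. An activated receptor phosphorylates FRS2, which recruits GRB2 and so switches on the RAS and ERK cascade, while PLCG1 binds the receptor directly. FGF9 acts between epithelium and mesenchyme in many organs, and in mice its loss shortens the small intestine.

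Each library held between 15332449 and 15466647 counts in shPRSS22 and between 14920523 and 15164328 in shCtrl. PRSS22 itself stood at 3.09, 3.16 and 2.61 CPM (counts scaled to a common library total) in shPRSS22 replicates 1 to 3, against 10.1, 9.38 and 10.1 CPM in shCtrl. The epithelial markers of the labelled cell type had a summed level of 4030 to 4263 CPM in shPRSS22 and 4105 to 4299 CPM in shCtrl over 7 genes. Most of each sum was the keratins KRT8, KRT18 and KRT19. VIL1 held only 0 to 23.3 counts in shPRSS22 and 0 to 7.03 in shCtrl, and CDX1 was not analysed here. Fibroblast, immune and endothelial markers summed to 46.6 to 56.2 CPM in shPRSS22 and 39.9 to 49.3 CPM in shCtrl over 14 genes. The collagen gene COL1A1 made up most of each sum, at 28.3 to 33.5 CPM in shPRSS22 and 24.2 to 31.6 CPM in shCtrl. Of the 14 genes, 11 lay under 0.5 CPM in shCtrl and the endothelial cadherin CDH5 had no count. In the same list the macrophage marker CD68 was called higher in shPRSS22 (log2 fold change 0.24, edgeR quasi-likelihood, adjusted p = 0.0271). The epithelial cadherin CDH1 was also called higher (0.15, edgeR quasi-likelihood, adjusted p = 0.000901). The sum of 15 markers of differentiated intestine was higher in the whole shPRSS22 group, at 46.5 to 54.6 CPM, against 36.9 to 39.7 CPM in shCtrl. Most of each sum was the carbonic anhydrase CA2, at 43.8 to 45.9 CPM in shPRSS22 and 35.3 to 37.9 CPM in shCtrl. Both tested members of that list were called higher by edgeR quasi-likelihood, the keratin KRT20 (1.29, adjusted p = 0.00204) and CA2 (0.29, adjusted p = 7.54e-05). The library of shPRSS22 replicate 1 also stood apart within its group: the 13 of these genes that lay under 0.5 CPM in shCtrl held 112 counts there, against 24.7 and 10.0 in shPRSS22 replicates 2 and 3 and 8 to 14.0 in shCtrl. Without that library CA2 was at 0.31 (adjusted p = 0.000168) and CDH1 at 0.14 (0.00491), whereas KRT20 at 0.80 (0.0501) and CD68 at 0.21 (0.0876) missed the threshold. Without it the counts of the 8 genes past the threshold were again 4 lower and 1 higher. Over all genes that fit called 2271 lower and 2371 higher. The part of these markers in the results was not tested.

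FGF9 is the ligand of the group (Entrez 2254; GRCh38 with GENCODE 29, chromosome 13, 21671383 to 21704498, plus strand) and has 1 coding transcript of 4220 bases. Its level was 11.1, 9.60 and 7.45 CPM in shPRSS22 replicates 1 to 3 and 21.8, 20.6 and 21.5 CPM in shCtrl replicates 1 to 3. Every knockdown library was below every control library, and the knockdown libraries also lay further apart from each other. The group means were 9.39 ± 1.85 CPM in shPRSS22 and 21.3 ± 0.618 CPM in shCtrl (SD, n = 3 each), a log2 fold change of -1.18 with a standard error (SE) of 0.099, which leaves 44.1% of the control level. The coefficient of variation was 19.7% in shPRSS22, where counting alone gives 8.32% at a mean of 144.3 counts, and 2.90% in shCtrl, where counting alone gives 5.58% at 321.3 counts. Only 20 of the 13104 genes had a more negative log2 fold change. Leaving out single libraries moved the value between -1.32, without shPRSS22 replicate 1, and -1.04, without shPRSS22 replicate 3. The authors' deposited table gives -1.18. In bulk RNA, fewer cells with the transcript and less of it per cell cannot be told apart.

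FGFBP1 (Entrez 9982; chromosome 4, 15935569 to 15938740, minus strand), a secreted protein that carries FGFs off heparan sulfate, ran the other way. It stood at 3.48, 3.48 and 4.05 CPM in shPRSS22 and at 2.87, 2.11 and 2.11 CPM in shCtrl. All 3 knockdown libraries were above the controls, at a low level of 53 to 62 counts in shPRSS22 and 32 to 43 counts in shCtrl. The means were 3.67 ± 0.329 and 2.37 ± 0.437 CPM in shPRSS22 and shCtrl, a log2 fold change of 0.63 (SE 0.19). DESeq2 also gave 0.63 and did not call the gene.

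**Figure D1:**
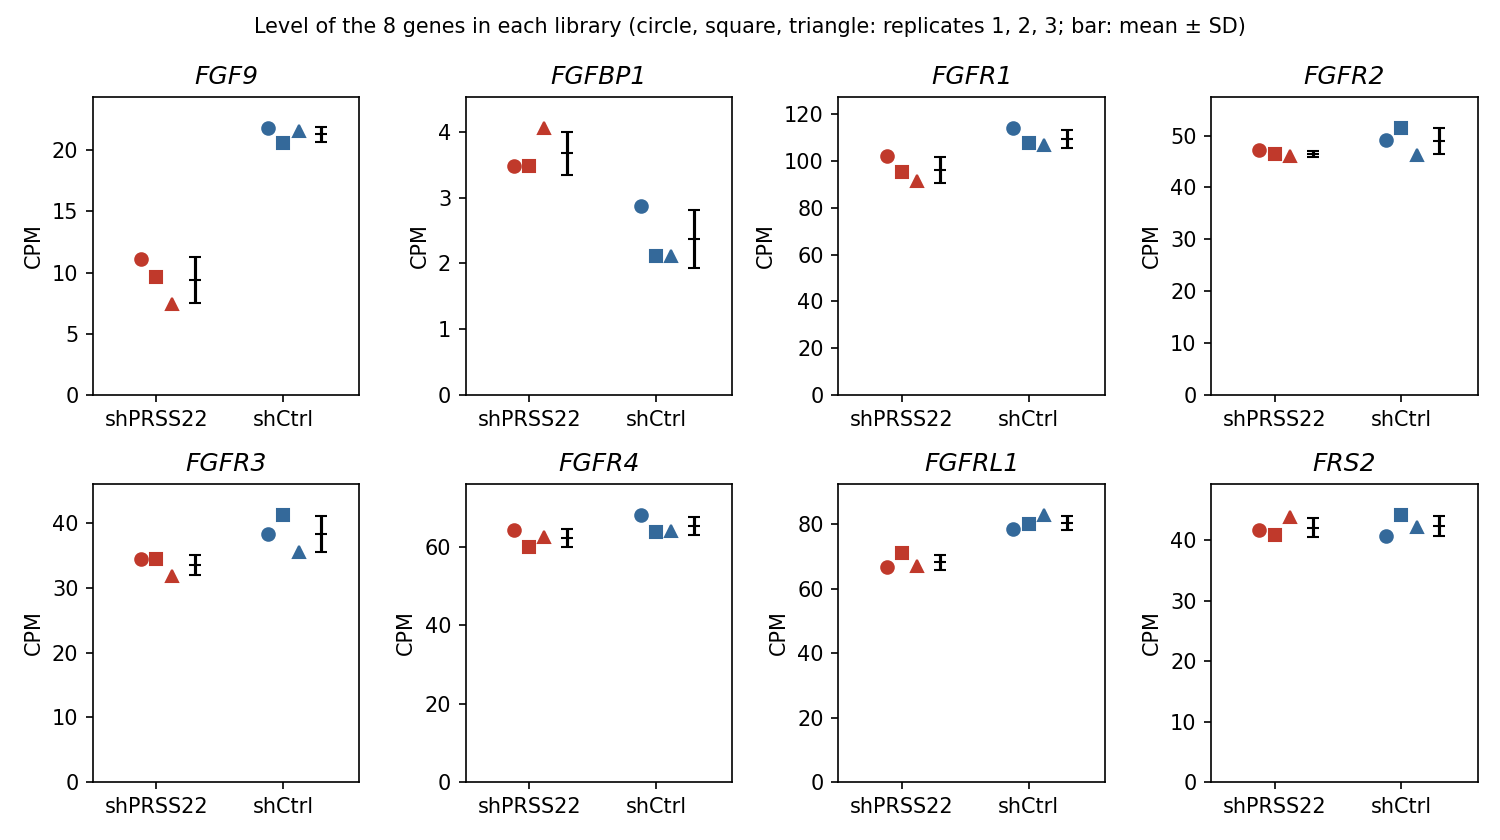
Level in CPM (axes from 0) of FGF9, FGFBP1, the receptors and FRS2 in the 3 shPRSS22 and 3 shCtrl libraries, with the mean and SD as a bar beside the points. FGF9 is the gene with the widest gap, at 7.45 to 11.1 CPM in shPRSS22 and 20.6 to 21.8 CPM in shCtrl, while the receptors differ by 15.1% or less.

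Among the receptors, FGFRL1 differed most. FGFRL1 (Entrez 53834; chromosome 4, 1009936 to 1026897, plus strand) encodes a receptor that binds FGFs but has no kinase domain. It had 66.9, 71.0 and 67.0 CPM in shPRSS22 and 78.5, 80.0 and 82.8 CPM in shCtrl. The groups did not overlap, with means of 68.3 ± 2.34 CPM in shPRSS22 and 80.5 ± 2.17 CPM in shCtrl and a log2 fold change of -0.24 (SE 0.044).

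FGFR1 (Entrez 2260; chromosome 8, 38400215 to 38468834, minus strand), the receptor tyrosine kinase with the highest count, had 102.1, 95.4 and 91.3 CPM in shPRSS22 and 114.0, 107.6 and 106.9 CPM in shCtrl. The knockdown libraries were all lower, with a log2 fold change of -0.19 (SE 0.043). Exons of LETM2 and of AC087623.1 on the opposite strand overlap those of FGFR1 and no strand marking is described. LETM2 held 94 to 133 counts in shPRSS22 and 89 to 103 in shCtrl, FGFR1 1398 to 1586 in shPRSS22 and 1617 to 1707 in shCtrl, and AC087623.1 was not analysed here. The part of opposite-strand reads in the FGFR1 values was not tested.

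FGFR3 (Entrez 2261; chromosome 4, 1793293 to 1808872, plus strand), a receptor that FGF9 binds well, had 34.5, 34.5 and 31.8 CPM in shPRSS22 and 38.3, 41.2 and 35.5 CPM in shCtrl. The groups came within 1 CPM of each other without overlapping, and the log2 fold change was -0.19 (SE 0.061). Without shCtrl replicate 2 the value was -0.14 and without shPRSS22 replicate 3 it was -0.15, and neither was called.

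FGFRL1 and FGFR3 both lie near the start of chromosome 4 and were both lower in shPRSS22, so their listed promoter windows are shown. Windows of the other genes are not described here. Of the 8 genes 6 had an entry in the RefSeq promoter table (GRCh38.p14), which gives 250 bases before and 50 after the start. The FGFR3 window is set on the GENCODE start of the gene, whereas the FGFRL1 window is set on a start 2528 bases inside the gene as GENCODE 29 draws it. Capitals mark the GC box GGGCGG, searched on both strands (the reverse strand reads CCGCCC), the core of the sequence that SP1 family factors bind.
FGFRL1, chr4:1012214-1012513, plus strand: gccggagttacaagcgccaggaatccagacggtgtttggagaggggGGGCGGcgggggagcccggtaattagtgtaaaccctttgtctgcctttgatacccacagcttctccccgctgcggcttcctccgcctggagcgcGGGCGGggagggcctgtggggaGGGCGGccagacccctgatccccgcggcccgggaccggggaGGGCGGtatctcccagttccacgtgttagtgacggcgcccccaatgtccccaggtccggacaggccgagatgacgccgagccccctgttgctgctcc
FGFR3, chr4:1793043-1793342, plus strand: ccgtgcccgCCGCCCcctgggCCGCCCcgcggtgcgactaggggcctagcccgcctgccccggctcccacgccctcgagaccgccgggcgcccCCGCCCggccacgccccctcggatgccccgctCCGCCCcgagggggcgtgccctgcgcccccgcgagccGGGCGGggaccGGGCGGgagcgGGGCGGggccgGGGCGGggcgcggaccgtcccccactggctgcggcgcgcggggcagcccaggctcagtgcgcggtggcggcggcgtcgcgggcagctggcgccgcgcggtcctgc
The FGFRL1 window held 4 such boxes and the FGFR3 window 8. Of all 35116 promoter windows 45.0% held at least 1 and 15.8% at least 3, and G and C made up 68.3% and 86.3% of the FGFRL1 and FGFR3 windows, where the median window had 58.7%. A match is a description of these letters and not a binding site.

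The other receptors and the adaptor overlapped between groups. FGFR2 (Entrez 2263; chromosome 10, 121478334 to 121598458, minus strand), whose epithelial splice form binds ligands of the FGF7 family, had 46.0 to 47.2 CPM in shPRSS22 and 46.3 to 51.4 CPM in shCtrl (log2 fold change -0.07, SE 0.052). FGFR4 (Entrez 2264; chromosome 5, 177086886 to 177098144, plus strand), the main receptor of FGF19, had 59.8 to 64.4 CPM in shPRSS22 and 63.7 to 68.0 CPM in shCtrl (-0.07, SE 0.047). FRS2 (Entrez 10818; chromosome 12, 69470349 to 69579789, plus strand) had 40.9 to 43.8 CPM in shPRSS22 and 40.8 to 44.1 CPM in shCtrl (-0.0091, SE 0.054). Overlap does not show that these genes were alike in both groups.

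In the fit over all genes, 4 of the 8 genes (FGF9, FGFR1, FGFR3 and FGFRL1) were past the threshold as lower, where 19.3% of all tested genes were, and 1 (FGFBP1) as higher, where 19.9% were (edgeR quasi-likelihood test, adjusted p under 0.05). The same 4 and 1 genes had groups that did not overlap, as had 48.6% of all tested genes, 24.3% on the lower side and 24.2% on the higher side. Because this comparison chose the genes, nothing is read from those counts. Their median log2 fold change was -0.13, beside -0.0056 over all tested genes. None of the 8 genes carried a fractional count in any library, so sharing of reads with other genes is not seen in their counts. Reads assigned whole to a wrong gene would not show in this way.

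Levels of different genes can be set side by side only per length, as TPM, a length-corrected share of all transcripts that the authors deposited. In shPRSS22 the order was FGFRL1 (38.4 TPM), FGFR4 (36.4), FGFR1 (33.9), FGFR2 (18.9), FGFR3 (14.1), FRS2 (10.6), FGFBP1 (5.66) and FGF9 (3.56). In shCtrl it was FGFRL1 (43.8 TPM), FGFR1 (40.1), FGFR4 (37.9), FGFR2 (20.0), FGFR3 (15.9), FRS2 (10.6), FGF9 (8.06) and FGFBP1 (3.63). FGFR1 and FGFR4 were the only neighbours in either order whose libraries overlapped. In shPRSS22 the lowest FGFRL1 library (38.14 TPM) was barely above the highest FGFR4 library (38.12 TPM). FGF9 and FGFBP1 changed places, and in neither group did their libraries overlap. The 4 kinase receptors summed to 108.7, 99.8 and 101.4 TPM in shPRSS22 and 116.0, 113.6 and 111.8 TPM in shCtrl. Within that sum FGFR1 made up 32.8 ± 1.04% in shPRSS22 and 35.2 ± 0.725% in shCtrl, and FGFR4 35.2 ± 1.18% and 33.3 ± 0.855% in shPRSS22 and shCtrl (SD, n = 3 each).

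The deposited counts and FPKM values together give the effective transcript length that the authors' quantification used for each gene in each library. It can change when the mix of transcript isoforms changes, which was not tested on isoforms here, and it was not used to choose the genes. For FGFR1 this implied length was 4521, 4506 and 4592 bases in shPRSS22 and 4413, 4343 and 4259 bases in shCtrl, longer in every knockdown library. The means were 4539 ± 46.4 and 4338 ± 77.2 bases in shPRSS22 and shCtrl, a difference of 4.64% (exact two-sided permutation test, p = 0.1, the smallest that 3 against 3 libraries allow). For FGFRL1 it was 2826, 2856 and 2838 bases in shPRSS22 and 2890, 2923 and 2942 bases in shCtrl, shorter in every knockdown library by 2.69% on average (exact permutation p = 0.1). FGFR2 (p = 0.3), FGFR3 (p = 0.2), FGFR4 (p = 0.9), FGFBP1 (p = 0.2) and FRS2 (p = 1) overlapped between groups by the same exact permutation test. GENCODE 29 lists 1 coding transcript of FGF9, of 4220 bases, and the transcripts that the authors' quantification used are not known here. For FGF9 the groups did not overlap, with means of 4221 bases in shPRSS22 and 4200 bases in shCtrl (exact permutation p = 0.1). Its difference was 0.508% from FPKM and 0.391% from TPM, where rounding can move 1 value by up to 0.284% and 0.175%. Among 10693 genes with an FPKM of at least 2 in every library, 12.3% had groups that did not overlap in implied length, 1.48% had a larger rise than FGFR1 and 5.61% a larger fall than FGFRL1; the 90th percentile of the absolute difference was 2.51%. GENCODE 29 lists 20 coding transcripts of FGFR1, from 389 to 6054 bases, and 6 of FGFRL1, from 562 to 3639 bases. These need not be the transcripts that were quantified, and the deposited values do not separate isoforms.

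**Figure D2:**
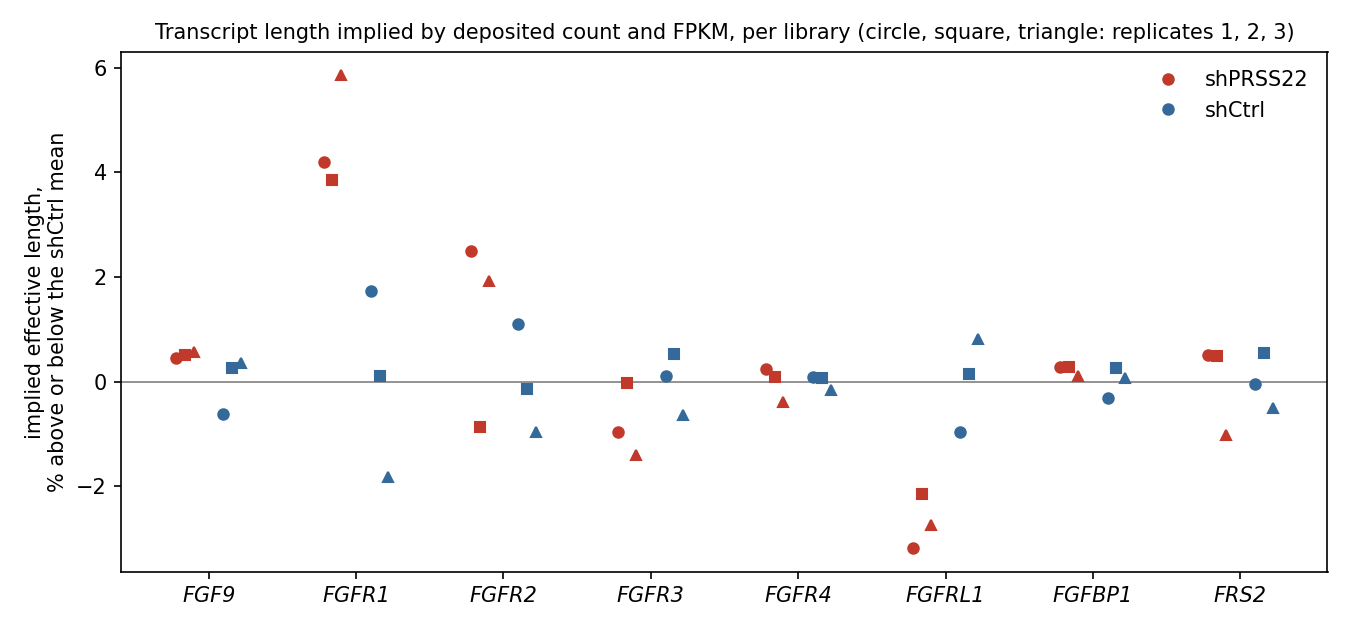
Effective transcript length implied by the deposited count and FPKM, as percent above or below the shCtrl mean of the same gene, in the 3 shPRSS22 and 3 shCtrl libraries. FGFR1 lies higher and FGFRL1 lower in all 3 shPRSS22 libraries, by 4.64% and 2.69% on average.

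The other genes of the pathway were taken by role. Of 124 listed genes 121 were in the table and 100 passed the filter; 22 rose and 25 fell, 47.0% of those tested, where 39.1% of all tested genes were called, 19.9% as higher and 19.3% as lower (edgeR quasi-likelihood test, adjusted p under 0.05). Without shCtrl replicate 2, 14 rose in place of 22, while over all genes 2187 rose in place of 2603.

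FGF2, a ligand of many FGF receptors, rose. It had 35.3, 33.0 and 42.2 CPM in shPRSS22 and 19.2, 20.4 and 21.0 CPM in shCtrl, with no overlap (log2 fold change 0.86, SE 0.078; edgeR quasi-likelihood, adjusted p = 2.32e-09). Its exons overlap those of NUDT6 on the opposite strand, and its counts carry fractions; NUDT6 held 86.0 to 104.1 counts in shPRSS22 and 87.6 to 98.1 in shCtrl, with a log2 fold change of -0.02. FGF21, an endocrine ligand that needs the co-receptor KLB, rose at a low level: it had 36, 25 and 38 counts in shPRSS22, against 14, 12 and 5 in shCtrl (log2 fold change 1.64, SE 0.31; adjusted p = 7.43e-05).

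FGF19, an endocrine ligand of the bile acid axis, was by far the most abundant, at 164 ± 3.85 TPM in shPRSS22 and 153 ± 3.72 TPM in shCtrl. It rose by 0.09 on the log2 scale (SE 0.035; edgeR quasi-likelihood, adjusted p = 0.0441) and lost its call without any 1 of 5 libraries, shCtrl replicate 3 being the exception (adjusted p 0.0567 to 0.162). It also missed the threshold in DESeq2 (0.127), in limma on TPM (0.0583) and with no filter (0.0557). KLB, the co-receptor of FGF19 and FGF21, was near 0, with 1 to 5 counts in shPRSS22 and 1 to 2 in shCtrl. The related KL had 1 count over all 6 libraries. Of 9 tested genes in the ligand list, FGF11 and FGF14 included, 3 rose and 0 fell, and 6 did not pass (edgeR quasi-likelihood test). Those 3 make up 33.3% of the tested list, beside 39.1% called among all tested genes, 19.9% as higher and 19.3% as lower. DESeq2 called 2 higher and 0 lower, and at an unadjusted p under 0.05 both tools had 0 lower. FGF7, FGF11, FGF17 and FGF18 among them had 26 to 129 counts in shPRSS22 and 33 to 124 in shCtrl. FGF3 and FGF20 had no count in any library, and FGF4, FGF10 and FGF16 were not analysed here.

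In the order of the ligand list by TPM, FGF9 was at rank 5 in shPRSS22, at 3.56 TPM, overlapping with FGF18 (3.88) and FGF21 (3.33). The intracellular FGF11 was above it, at rank 3. In shCtrl FGF9 was at rank 2, at 8.06 TPM, with no overlap with FGF19 above or FGF11 (5.70) below. FGF2 was at rank 2 in shPRSS22, at 9.27 ± 1.31 TPM, against 5.01 ± 0.246 TPM in shCtrl. As a share of the summed TPM of the ligand list, FGF9 made up 1.82 ± 0.358% in shPRSS22 and 4.39 ± 0.149% in shCtrl. FGF2 made up 4.73 ± 0.588% and 2.73 ± 0.0949% in shPRSS22 and shCtrl. FGF19 held 83.6 ± 0.480% in shPRSS22 and 83.5 ± 0.573% in shCtrl.

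**Figure D3:**
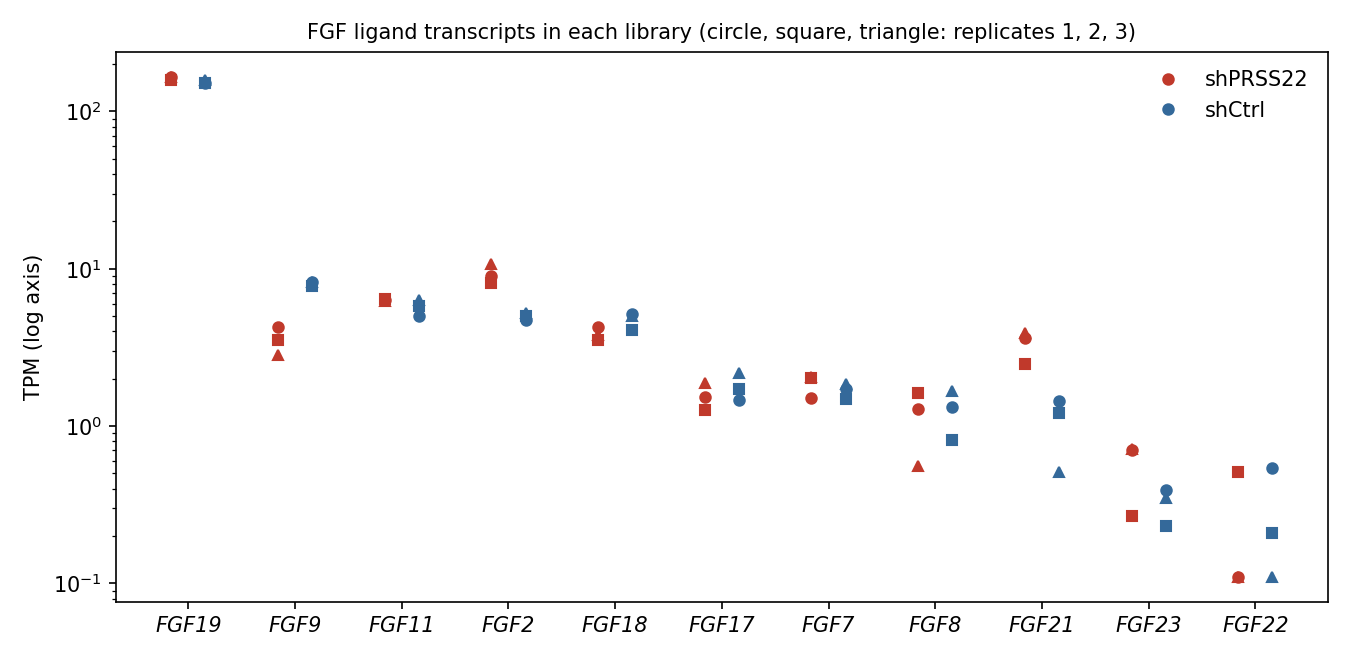
TPM (log axis) of FGF9 and each gene of the ligand list, FGF11 included, with a shCtrl mean of at least 0.2 TPM, in the 3 shPRSS22 and 3 shCtrl libraries. FGF19 stands far above the rest in both groups, FGF9 is lower and FGF2 and FGF21 are higher in all 3 shPRSS22 libraries.

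Co-receptors and heparan sulfate proteoglycans moved both ways: of 11 tested, 2 rose and 5 fell, with a median log2 fold change of 0.02. Calls made up 63.6% of this list, beside 39.1% of all tested genes. The syndecan SDC4, a transmembrane proteoglycan, fell to 376 ± 17.8 CPM in shPRSS22, against 479 ± 7.84 CPM in shCtrl (-0.35, SE 0.035; edgeR quasi-likelihood, adjusted p = 1.47e-09). HSPG2, the basement membrane proteoglycan perlecan, fell by 0.33 on the log2 scale, and GPC2, a glypican at a low level, by 0.44. GPC1, a glypican anchored in the cell membrane, rose by 0.15, and FLRT1, a membrane protein that associates with FGF receptors, by 0.46. The call of FLRT1 rested on shCtrl replicate 2 (adjusted p = 0.0735 without it), and GPC2 missed the threshold without shCtrl replicate 1 (0.0879), shPRSS22 replicate 2 (0.0693) or shPRSS22 replicate 3 (0.0547), and neither passed in DESeq2.

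Of the enzymes that build and edit heparan sulfate, 7 of 20 tested fell and 2 rose (median log2 fold change -0.13), 45.0% called. Of all tested genes 39.1% were called, 19.3% as lower and 19.9% as higher. HS3ST1, a 3-O-sulfotransferase, fell to 58.3 ± 2.82 CPM in shPRSS22, against 77.8 ± 1.66 CPM in shCtrl (-0.42, SE 0.046; edgeR quasi-likelihood, adjusted p = 9.85e-09). XYLT2, which starts the chain on its core protein (-0.34), and B4GALT7, which adds the next sugar (-0.35), fell, as did HS2ST1, the 2-O-sulfotransferase (-0.27). EXT1, a chain polymerase (0.14), and HS6ST3, a 6-O-sulfotransferase at a low level (0.42), rose. EXT1 lost its call without shPRSS22 replicate 3 (adjusted p = 0.0692) and HS6ST3 without any 1 library (0.0517 to 0.103); neither passed in DESeq2.

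Inside the cell, 10 of 28 adaptors and kinases rose, by 0.20 or less, and 0 fell (edgeR quasi-likelihood test; median log2 fold change 0.02). Calls in either direction made up 35.7% of the list, beside 39.1% of all tested genes. By direction every call in this list was higher, whereas 19.9% of all tested genes were called higher and 19.3% lower. At an unadjusted p under 0.05 edgeR had 2 lower and DESeq2 1, and after adjustment DESeq2 called 8 higher and 0 lower. The adaptor CRKL rose by 0.20 (SE 0.037), SOS2, a RAS exchange factor, by 0.19 and PLCG1 by 0.18. GRB2, which docks on FRS2, rose by 0.13.

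Of 11 tested inhibitors of FGF signalling, 4 fell and 1 rose (median log2 fold change -0.07), 45.5% called, beside 39.1% of all tested genes. IL17RD, a membrane protein that blocks FGF receptor signalling, fell to 58.6 ± 0.849 CPM in shPRSS22, against 80.6 ± 4.06 CPM in shCtrl (-0.46, SE 0.046; edgeR quasi-likelihood, adjusted p = 1.28e-09). SPRY4 (-0.28), a Sprouty feedback inhibitor, and the ERK phosphatases DUSP4 (-0.29) and DUSP6 (-0.27) fell. DUSP5, a nuclear ERK phosphatase, rose to 518 ± 12.8 CPM in shPRSS22, against 380.5 ± 12.2 CPM in shCtrl (0.45, SE 0.034; edgeR quasi-likelihood, adjusted p = 3.24e-12).

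Of 13 tested transcriptional outputs of FGF and ERK signalling, 3 rose and 5 fell (median log2 fold change -0.0054). Together 61.5% of these outputs were called, beside 39.1% of all tested genes. The ETS factors ETV1 (-0.31) and ETV4 (-0.27) fell while the related ETV5 (0.12) rose. The early response factors EGR1 (-0.36) and EGR2 (-0.40) fell, whereas the AP-1 subunit FOSL1 rose to 66.2 ± 5.59 CPM in shPRSS22, against 36.7 ± 0.436 CPM in shCtrl (0.85, SE 0.056; edgeR quasi-likelihood, adjusted p = 9.95e-14). IER3, an early response gene, rose by 0.14. EGR2 did not pass in DESeq2 (adjusted p = 0.0521).

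Splicing factors known to act on FGF receptor isoforms fell in 4 of 8 members and rose in 1 (median log2 fold change -0.09). This list had 62.5% called, beside 39.1% of all tested genes. ESRP1, which favours the epithelial form of FGFR2, rose by 0.19 (SE 0.032), while TIA1 (-0.33), HNRNPA1 (-0.30) and HNRNPF (-0.26), RNA-binding regulators of exon choice, fell. ESRP2 and PTBP1 were at 0.05 and 0.02 and did not pass.

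**Figure D4:**
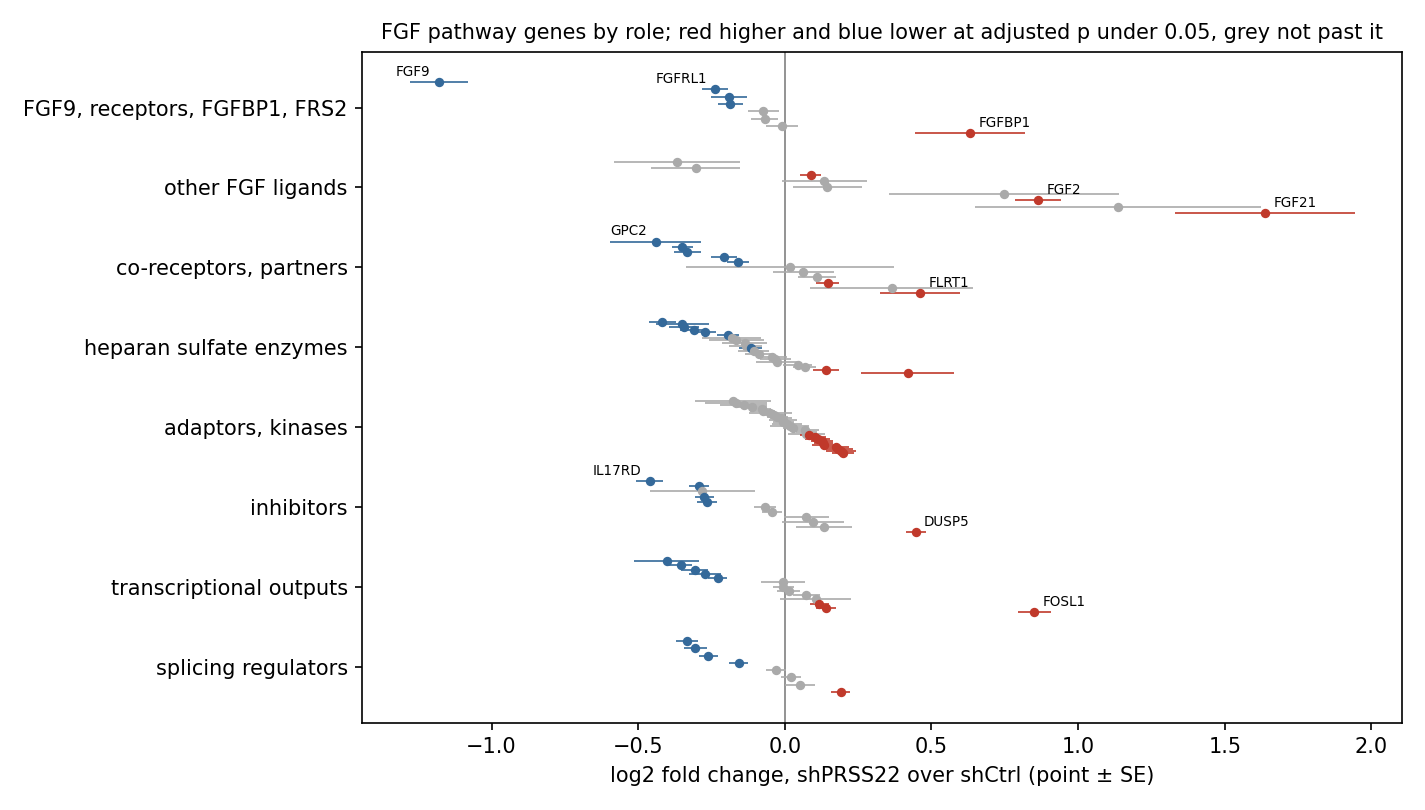
Log2 fold change of shPRSS22 over shCtrl with its SE for the 8 genes and for the 100 tested genes of 7 lists by role, coloured by whether they were past an adjusted p of 0.05. FGF9 is the lowest point at -1.18, and FGF21 (1.64), FGF2 (0.86) and FOSL1 (0.85) are called as higher.

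The profiles most like that of FGF9 over the 6 libraries, among 11156 genes with a mean of at least 5 CPM, belonged to C6orf120, PHYH, CFD, SEMA3A and SIRPA (Pearson r 0.997 to 0.998 on log2 CPM). All 5 were lower in shPRSS22, by less than FGF9, from -0.39 for SEMA3A to -0.63 for SIRPA. With 2 groups in 6 libraries such values are common: 564 genes, 5.06%, had r above 0.95. The profile most like that of FGFRL1 was ANXA4 (r = 0.999), that of FGFR3 ZNF362 (0.998) and that of FGFR4 DAB2IP (0.992).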

How the data were processed

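Poly(A) RNA of 6 libraries was sequenced. The submitters' processing notes list the genome GRCh38.p13 and, without saying what each did, RSEM 1.3.1, HISAT2 2.2.1, FastQC 0.12.1, R 4.3.1, DESeq2 1.4.5 and Bowtie2 2.3.4.3. Per the file headers, the authors deposited an estimated count, FPKM, TPM and a normalised count (a scaled signal, not used) per gene and library, with their log2 fold change, p-value and q-value. Of each library's counts 13.9% to 15.2% lay in genes with fractional values. Counts were rounded and tested with edgeR 4.0.16 (R 4.3.3; TMM, filterByExpr, robust quasi-likelihood F test, two-sided, Benjamini-Hochberg over 13104 genes, threshold 0.05); the test was checked on simulated data. CPM uses the TMM-scaled total of tested genes; summed marker levels use the unscaled total of all genes. SE is the log2 fold change over the square root of F. Alternatives used DESeq2 1.42.0 and limma 3.58.1. Implied length is the count divided by FPKM and by the library total, centred on each library's median over genes. The 8 genes, the lists and the tests were chosen with earlier results of these data known. Up to 3 genes per list and direction were named by largest change among those called at a mean of at least 1 CPM; others named were chosen after their values were seen.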

Additional observations from a re-analysis of the deposited data

How the results depend on the processing

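As a description, since the same comparison chose the genes, the log2 fold changes over 12 alternatives ran from -1.32 to -1.04 for FGF9, -0.24 to -0.15 for FGFR1, -0.26 to -0.19 for FGFRL1, -0.24 to -0.14 for FGFR3 and 0.56 to 0.79 for FGFBP1. FGFBP1 was not called in DESeq2 (0.63), and FGFR3 was not called in DESeq2 (-0.19), in limma on log2(TPM + 0.5) (-0.16) or without either of 2 single libraries. DESeq2 called 0 of the 8 genes higher and 3 lower (1 and 4 at an unadjusted p under 0.05). Over all genes DESeq2 called 1742 higher and 1605 lower, against 2603 and 2523 of 13104 tested genes in edgeR. Because this comparison chose the 8 genes, nothing is read from their counts. Without 1 library the other pathway genes called higher numbered 14 to 20, and all genes called higher 2161 to 2484. Of 30 named other genes 24 kept their call throughout. With the replicate number as a block, 2782 genes were higher and 2747 lower, and FGF9 stood at -1.18; no call of the 8 genes changed. The numbers are not said to pair samples: same-numbered deviations correlated at 0.0776, 0.0799 and 0.167, although each library correlated best with its own number. TPM in place of FPKM left the implied length differences of FGFR1 at 4.63% and FGFRL1 at -2.69%. FGFBP1 and FGF21 are limited by depth, at 62 counts or fewer per library.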
